A study of Mus musculus with 12 samples.

Results

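Mouse TM3 cells were treated with 5 mM or 1 mM methoxyacetic acid (MAA) for 3 h, and the responses to these concentrations were compared in the 4 arrays that carry both labels, of 12 in the series. Of these arrays, 2 compared RNA after 3 h of 5 mM MAA with RNA of untreated TM3 cells kept for 3 h, and 2 did the same at 1 mM. TM3 is a mouse cell line derived from the Leydig cells of an immature testis, and MAA is the acid to which the body converts the solvent ethylene glycol monomethyl ether. Each RNA was a pool of 3 cultures, and the dyes were exchanged between replicates: MAA-treated RNA carried the green dye on replicate 1 and the red dye on replicate 2. Replicate 1 of both concentrations lay on slide 1, replicate 2 at 1 mM on slide 2, and replicate 2 at 5 mM on slide 3. The controls of both concentrations belong to the same control group, and the labels do not say whether the control pools were the same RNA. Each concentration was tested against its control to call responding probes, the values are set side by side, and statements that the concentrations differ rest on the test of their difference.

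Leydig cells lie between the seminiferous tubules and make testosterone from cholesterol under the control of luteinizing hormone. MAA is toxic to the testis and inhibits histone deacetylases. Immediate early genes are transcribed soon after a growth factor or stress signal without new protein synthesis, and many of the proteins they encode, together with phosphatases induced by the ERK pathway, then shape or shut off that signal.

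Few of the defining genes of Leydig cells were well measured. Of 9 Leydig cell markers, the 3 with a control channel well above background on all 4 arrays were Star, Cyp17a1 and Insl3. Lhcgr, Cyp11a1 and Hsd3b1 were not well above background on any of these arrays. No Leydig cell marker passed the test of the difference between concentrations, and Star, the carrier of cholesterol into mitochondria, had a difference of 0.65 on the log2 scale (adjusted p = 0.213). The markers of other testis cells with a control channel above background on all 4 arrays were 4 of 8 for Sertoli cells, among them Wt1, 3 of 8 for germ cells, among them Ddx4, and 2 of 8 for peritubular and endothelial cells, among them Acta2. Signals of different probes do not rank the abundance of these genes.

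Macrophage markers differed between the concentrations at a single gene. Of 5 macrophage markers on the array, Cd14 and Lyz2 were above background, and Adgre1, Ptprc and Itgam were not. Cd14, a receptor for bacterial lipopolysaccharide, had log2 MAA/control ratios of -0.95 and -0.92 on the 5 mM arrays and -0.21 and -0.13 on the 1 mM arrays. It was lower at 5 mM by a log2 difference of -0.76 (SE 0.10, adjusted p = 0.0121), which did not pass after median centring (adjusted p = 0.111) or with any of the 4 arrays left out. The summed control signal of the 5 markers was 854 and 617 on the 5 mM arrays and 596 and 506 on the 1 mM arrays. The samples were cultures of the TM3 line, and whether they held any macrophage RNA was not tested. In such bulk RNA fewer cells that express a gene and less RNA per cell cannot be told apart.

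Each of 41174 probes was given a log2 MAA/control ratio on each array, and the difference between concentrations is the mean ratio of the 5 mM arrays minus that of the 1 mM arrays, so a positive value means a higher ratio at 5 mM. The median ratio of all probes was -0.10 at 5 mM and 0.02 at 1 mM, and the median difference was -0.06, or -0.08 within replicate 1 and 0.07 within replicate 2. Among the 24083 probes with both channels well above background on all 4 arrays the median difference was -0.01. The pair of 5 mM arrays had a Pearson correlation of 0.496 over all probes and the pair of 1 mM arrays -0.134 (probes of an array are not separate samples), and among probes with both channels above background these were 0.790 and 0.420. The 1 mM arrays were thus positively correlated over strong signals and not over all probes. Over all probes, arrays of different concentrations with the same replicate number and dye orientation had correlations of 0.526 and 0.542, above those of either pair of the same concentration, and the number of arrays limits the precision. The p-values rest on the spread between replicate arrays of all 12, which include arrays after 8 h and 24 h of MAA at both concentrations. This spread includes that between pools of cultures and that between dye orientations.

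At 5 mM MAA more probes were called at 3 h than at 1 mM, and of those called at 5 mM with a further response more were called at 5 mM alone than at both concentrations. A probe was called at 5 mM when its ratio differed from 1 by over 2-fold with an unadjusted limma p under 0.005, which 832 probes did upward (2.02% of all probes) and 715 downward (1.74%). At 1 mM the fold was 1.5, and 545 probes were called upward (1.32%) and 258 downward (0.627%). The difference itself, tested as a limma contrast at an adjusted p under 0.05, was higher at 5 mM for 621 probes (1.51%) and lower for 778 (1.89%). Within slide 1, which holds replicate 1 of both concentrations, the median difference was 0.64 for the 621 and -0.64 for the 778. The probes were chosen by the mean of this difference and that of replicate 2, so these medians are not a separate test.

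These 1399 probes fall into kinds. A larger response at 5 mM, past the contrast and called at 5 mM but not at 1 mM, was found for 425 probes (1.03%), of which 162 were raised and 263 lowered. A graded response, called in the same direction at both concentrations and larger at 5 mM by the contrast, was found for 198 probes (0.481%), 101 of them raised and 97 lowered. A response larger at 1 mM was found for 14 probes (0.034%), and 762 probes past the contrast were called at neither concentration. With 1 probe for each of 16017 genes, 291 genes were higher at 5 mM (1.82%) and 385 lower (2.4%). These counts depended on single arrays: without replicate 1 at 1 mM 90 probes passed the contrast, without replicate 2 at 1 mM 114, without replicate 1 at 5 mM 465, and without replicate 2 at 5 mM 82. Centring each array on its median, which shifted the median difference from -0.06 to 0.04, left 220 probes, and the 4 arrays at 3 h alone left 0 by limma, where 3650 had an unadjusted p under 0.05.

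**Figure D1:**
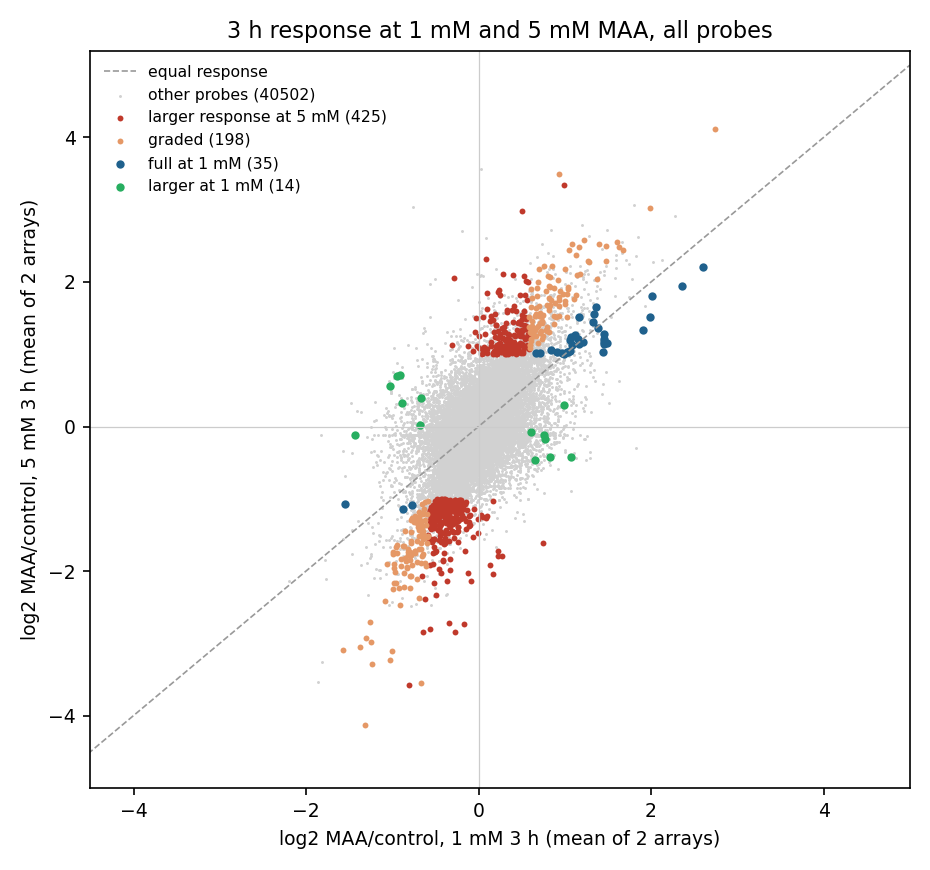
Mean log2 MAA/control ratio at 1 mM (horizontal axis) and at 5 mM (vertical axis) for all 41174 probes, with the dashed line marking equal responses. The 425 probes with a larger response at 5 mM and the 198 graded probes lie away from the line, and the 35 full at 1 mM lie along it.

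Of 77 genes that the naming rule picked and that were past the contrast, 35 stayed past it after median centring and 16 when any of the 4 arrays was left out. The 15 that passed under all alternatives other than the fit of the 4 arrays alone and the fold threshold were Fos, Nr4a1, Ccn1, Dusp6, Errfi1, Itpka, Per1, Per2 and Cxcl10 among those higher at 5 mM, and Cxcl1, Cxcl5, Gas1, Gper1, Kif5c and Ptgfr among those lower. Others that stayed past it after median centring were Angpt2, Ccn2, Dnajc6, Egr1, Fam180a, Ggt5, Hbegf, Ier3, Igfbp5, Il12a, Jag1, Pcdhb15, Slc2a4, Snai1, Spon2, Spry1 and Taok3, and any other of the 77 named below lost its call there. None of the 77 changed direction. Cd14 and 13 list members outside the rule (Junb, Ier2, Atf3, Fosl2, Dusp4, Cx3cl1, Tnfsf11, Tslp, Ccl17, Htra3, Rasgrp3, Itpkc and Pik3cb) are also named below. Of these 14, Fosl2, Cx3cl1, Tnfsf11 and Rasgrp3 stayed past the contrast after median centring and none with every array left out in turn.

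Immediate early transcription factors were the list with most members higher at 5 mM, by number. Over all genes 1.82% were higher at 5 mM and 2.4% lower, the shares to set beside the counts of this and the later lists. Of 25 of these factors on the array, 8 were higher and 1 was lower at 5 mM than at 1 mM. The median difference of the list was 0.38, beside -0.05 over all genes. By share, the inhibitors of the ERK pathway described below had slightly more, with 5 of 15 higher. Fos, a subunit of the AP-1 transcription factor, had log2 MAA/control ratios of 1.90 and 1.79 on the 5 mM arrays and 0.31 and -0.12 on the 1 mM arrays. The 5 mM arrays lay far above control while the 1 mM arrays lay on either side of it, and the difference was 1.75 (SE 0.16, 3.36-fold, adjusted p = 0.00655). Egr1, a zinc finger factor induced by ERK signaling, had ratios of 2.33 and 2.04 at 5 mM and 0.93 and 0.48 at 1 mM. It was raised at both concentrations and more at 5 mM, by 1.48 (SE 0.17, adjusted p = 0.00938). Nr4a1, an orphan nuclear receptor that activates steroidogenic genes in Leydig cells, had ratios of 1.81 and 2.03 at 5 mM and of 0.86 and 0.89 at 1 mM, again graded, with a difference of 1.04 (SE 0.10, adjusted p = 0.00627). Ier3, a regulator of survival and ERK signaling, reached 1.33 on both 5 mM arrays against 0.49 and 0.53 at 1 mM.

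Egr2, a relative of Egr1, was closer to its 5 mM level at 1 mM, with ratios of 1.89 and 1.51 at 5 mM and 1.09 and 0.93 at 1 mM. Its difference of 0.69 (SE 0.14) was near the threshold (adjusted p = 0.0463) and was past it neither after median centring (adjusted p = 0.0970) nor with any array left out. Junb, Ier2 and Atf3 were also higher at 5 mM, by 0.58, 0.68 and 0.55. The exception in the list was Fosl2, an AP-1 subunit with ratios of -1.10 and -1.38 at 5 mM and 0.02 and -0.24 at 1 mM, which was lower by -1.13 (SE 0.14, adjusted p = 0.0107). The direction of the list's median was the same under each scaling tried, while the count of members higher at 5 mM was 4 after median centring and 9 after normexp and loess.

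**Figure D2:**
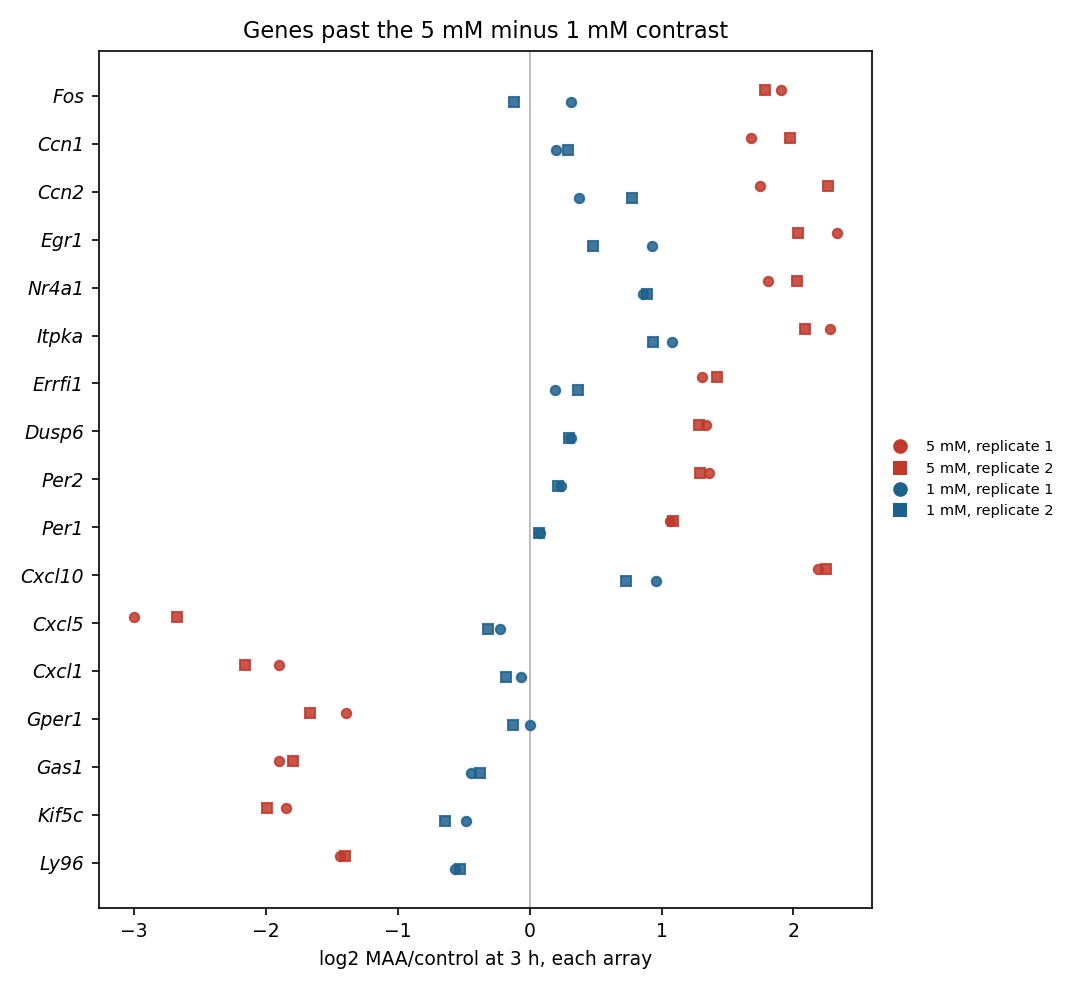
Log2 MAA/control ratio (horizontal axis) on each array for 17 genes past the contrast, with 5 mM in red, 1 mM in blue, circles for replicate 1 and squares for replicate 2. The 5 mM arrays of each gene lie apart from its 1 mM arrays, which are near 0 for Fos, Per1, Cxcl1 and Gper1.

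Of 15 inhibitors that the ERK pathway induces against itself, 5 were higher at 5 mM and none was lower. The median difference was 0.28, or 0.14 within slide 1 and 0.51 in replicate 2, and 3 remained past the contrast after median centring. Dusp6, the phosphatase that inactivates ERK in the cytoplasm, had ratios of 1.34 and 1.28 at 5 mM and 0.31 and 0.30 at 1 mM. Errfi1, which binds and inhibits the EGF receptor, had 1.31 and 1.42 at 5 mM and 0.19 and 0.36 at 1 mM. Arrays of the same concentration lay close together and far from those of the other, and the differences were 1.01 (SE 0.09, adjusted p = 0.00506) for Dusp6 and 1.09 (SE 0.09, adjusted p = 0.00506) for Errfi1. Spry1, an inhibitor upstream of RAF, and Dusp14 were graded: Spry1 was higher at 5 mM by 0.83 and Dusp14 by 0.61, after ratios at 1 mM of 0.88 and 0.53 for Spry1 and of 0.61 and 0.59 for Dusp14, another probe of which was not called at 1 mM. Dusp4, a nuclear ERK phosphatase, was higher by 0.59 (SE 0.11, adjusted p = 0.0341).

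Of 10 EGF family ligands and receptors on the array 1 was higher and 1 was lower at 5 mM, beside 1.82% and 2.4% of all genes. The median difference of the list was -0.07 and turned positive after median centring. Hbegf, a membrane-anchored ligand, had ratios of 1.63 and 1.87 at 5 mM and 0.56 and 0.57 at 1 mM, a difference of 1.18 (SE 0.13, adjusted p = 0.00801). Ereg moved the other way, with -1.01 and -0.90 at 5 mM and -0.20 and -0.30 at 1 mM, and was lower at 5 mM by -0.70 (SE 0.09, adjusted p = 0.0144). Areg, the ligand with the highest ratios, had 3.05 and 2.77 at 5 mM and 2.19 and 2.36 at 1 mM, where its control channel was well above background on 1 of the 2 arrays. Its difference of 0.64 did not pass (95% interval 0.27 to 1.00, adjusted p = 0.0833), and the interval also reaches too far for Areg to count as full at 1 mM. The control channel of Areg was itself higher by 1.06 on the 5 mM arrays, beside 1.69 in its MAA channel.

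Of 17 circadian clock genes 4 were higher at 5 mM, none was lower and 13 did not pass. The median difference of the list was 0.35, but 0.16 with normexp and loess, 0.13 with the slide as a block, and 0.06 within slide 1 against 0.33 in replicate 2. Per2, a repressor of the clock, had ratios of 1.36 and 1.29 at 5 mM and 0.24 and 0.21 at 1 mM, and Per1, its close relative, had 1.06 and 1.09 at 5 mM and 0.08 and 0.07 at 1 mM. For both the 1 mM arrays stayed near control, and the differences were 1.10 for Per2 (SE 0.08, adjusted p = 0.00506) and 1.00 for Per1 (SE 0.09, adjusted p = 0.00531). Another probe of Per2 had ratios of -0.17 and -0.07 at 5 mM and 0.07 and -0.09 at 1 mM and did not pass, so the Per2 result rests on 1 of its 2 probes. Cry2, also a repressor, was higher by 0.98 (SE 0.14, adjusted p = 0.0175), and its other probe, with a control channel above background on 1 of the 4 arrays, did not pass. Arntl, the activator that pairs with CLOCK, was higher by 0.58 (SE 0.08, adjusted p = 0.0157). Median centring left Per1 and Per2 past the contrast.

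Among the largest decreases that needed 5 mM were those of chemokines. Cxcl5, which attracts neutrophils, had ratios of -3.00 and -2.68 at 5 mM and -0.23 and -0.31 at 1 mM, a difference of -2.57 (SE 0.14, 5.95-fold, adjusted p = 0.00506). Cxcl1, a ligand of the same receptor, had -1.90 and -2.16 at 5 mM and -0.07 and -0.18 at 1 mM, a difference of -1.90 (SE 0.13, 3.74-fold, adjusted p = 0.00506). At 1 mM both lay close to control, so almost the whole decrease appeared between the concentrations. Il12a, a subunit of interleukin-12, was not well above background in the MAA channel at 5 mM and was at least 2.21-fold lower than control there and at least 1.44-fold lower than at 1 mM, where 1 array measured it (adjusted p = 0.00666). With normexp and loess the log2 difference of Il12a was -0.26 and did not pass (adjusted p = 0.241), so these minimum folds hold for the processed signals alone.

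Other chemokines and cytokines were raised at 1 mM and more so at 5 mM. Cxcl10, an interferon-inducible chemokine for T cells, had ratios of 2.18 and 2.25 at 5 mM and 0.96 and 0.73 at 1 mM, a graded increase of 1.37 (SE 0.11, adjusted p = 0.00506). Cx3cl1, the membrane-bound chemokine fractalkine, had 1.86 and 1.90 at 5 mM and 0.95 and 0.94 at 1 mM, and Tnfsf11, the osteoclast factor RANKL, had 1.98 and 2.08 at 5 mM and 1.05 and 0.79 at 1 mM. These increases were already called at 1 mM and were larger at 5 mM by 0.94 and 1.11, and Tslp and Ccl17 were likewise graded, by 0.61 and 0.98. In all, 5 of 42 chemokines, cytokines and receptors were higher at 5 mM and 3 were lower, with a median difference of 0.01, and 3 remained in each direction after median centring.

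Interferon-inducible genes other than Cxcl10 were mostly lower among those that passed. Of 37 on the array 3 were lower at 5 mM and 1 was higher, beside 2.4% and 1.82% of all genes. The median difference of the list was -0.17, and no member passed after median centring. Tgtp1, an interferon-induced GTPase, had ratios of -1.05 and -1.34 at 5 mM and -0.41 and -0.59 at 1 mM, a difference of -0.70 (SE 0.12, adjusted p = 0.0273), while its other probe, with a difference of -0.57, did not pass (adjusted p = 0.0539). Irgm1, a related GTPase, was lower by -0.57 (SE 0.08, adjusted p = 0.0142), and another of its probes was lower by -0.74 and was called at 5 mM. Usp18, the protease that removes ISG15 from proteins and dampens interferon signaling, was the member that was higher, with 1.66 and 1.31 at 5 mM and 0.63 and 0.46 at 1 mM, a difference of 0.94 that was 0.60 with normexp and loess.

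Ly96, the partner of the lipopolysaccharide receptor TLR4, had ratios of -1.44 and -1.40 at 5 mM and -0.57 and -0.53 at 1 mM. It was lower at 5 mM by -0.87 (SE 0.08, adjusted p = 0.00594), in the same direction as Cd14, and stayed past the contrast with any of the 4 arrays left out though not after median centring (adjusted p = 0.0662).

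Matricellular CCN proteins, secreted regulators of adhesion, split by member. Ccn1 had ratios of 1.68 and 1.97 at 5 mM and 0.20 and 0.29 at 1 mM, and Ccn2 had 1.75 and 2.27 at 5 mM and 0.38 and 0.78 at 1 mM. These genes were raised mainly at 5 mM, with differences of 1.58 (SE 0.13, 2.99-fold, adjusted p = 0.00506) for Ccn1 and 1.43 (SE 0.20, adjusted p = 0.0153) for Ccn2. Ccn4 went the other way, with -1.61 and -1.50 at 5 mM and -0.67 and -0.43 at 1 mM, and was lower by -1.01 (SE 0.12, adjusted p = 0.00938). Igfbp5, which binds insulin-like growth factors, had -1.93 and -2.20 at 5 mM and -0.80 and -0.76 at 1 mM, a graded decrease of -1.29 (SE 0.13, adjusted p = 0.00713), and the matrix protease Htra3 was lower by -0.78. The list of IGF system and CCN genes thus had 2 of 19 members higher and 3 lower at 5 mM, with a median difference of -0.15. Igfbp3, another binding protein of these factors, was not well above background in either channel and gets no value.

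The list of phosphoinositide and calcium signaling held larger, graded and full responses. Itpka, a kinase that phosphorylates inositol trisphosphate and so ends its release of calcium, had ratios of 2.28 and 2.09 at 5 mM and 1.08 and 0.94 at 1 mM. It was graded, with a difference of 1.18 (SE 0.11, adjusted p = 0.00594). Ptgfr, the receptor of prostaglandin F2 alpha, was not well above background in the MAA channel on either 5 mM array and was at least 3.73-fold lower than control there and at least 2.22-fold lower than at 1 mM (adjusted p = 0.00506), folds that hold for the processed signals alone, since with normexp and loess its log2 difference was -0.48 and passed (adjusted p = 0.0187). Plcd3, a phospholipase C, was graded upward by 0.58 (SE 0.10, adjusted p = 0.0276). Rasgrp3, an activator of RAS that responds to diacylglycerol, also passed upward, but neither of its channels was well above background on any of the 4 arrays, and it gets no fold. Itpkc and Pik3cb, lipid and inositol kinases, were higher by 0.54 and 0.44 and were called at neither concentration. Of 37 members 5 were higher and 2 lower, with a median difference of 0.08, and Plcd1 and Sphk1 of the same list were full at 1 mM.

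Glucose transporters moved in opposite directions. Slc2a4, the insulin-responsive transporter GLUT4, had the highest ratios of the genes named here, 4.36 and 3.87 at 5 mM and 3.02 and 2.45 at 1 mM. Even from that level at 1 mM it was higher at 5 mM by 1.38 (SE 0.21, adjusted p = 0.0205), and 1 mM gave 66.5% of its log2 response at 5 mM. Slc2a10 had -1.26 and -1.37 at 5 mM and -0.38 and -0.32 at 1 mM and was lower by -0.97 (SE 0.14, adjusted p = 0.0159). Hk2, the hexokinase that traps glucose in the cell, was higher by 0.46 (SE 0.09, adjusted p = 0.0425), and the other 23 members on the array did not pass, with a median difference of -0.02 over the 26 that turned positive after median centring.

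In the WNT and Notch list, 3 of 35 members were higher at 5 mM and 1 was lower, beside 1.82% and 2.4% of all genes. Jag1, a ligand of Notch, had ratios of 0.98 and 1.03 at 5 mM and 0.14 and -0.07 at 1 mM, a difference of 0.96 (SE 0.12, adjusted p = 0.0124). Notch1, its receptor, had 1.81 and 1.69 at 5 mM and 1.03 and 0.83 at 1 mM and was graded, by 0.82 (SE 0.14, adjusted p = 0.0276). Hes1, a target of Notch, was higher by 0.73 (SE 0.14, adjusted p = 0.0364), and Fzd2, a WNT receptor, was lower by -0.47 (SE 0.09, adjusted p = 0.0351). Jag1, Notch1 and Hes1 were the members higher at 5 mM, and the other Notch ligands, receptors and targets listed, among them Dll1, Notch2 and Hey1, did not pass. The median of the list was -0.16 and turned positive with normexp and loess. After median centring Jag1 alone of the list stayed past the contrast.

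Gper1, a membrane receptor for estrogen, had ratios of -1.39 and -1.67 at 5 mM and -0.00 and -0.13 at 1 mM, a difference of -1.47 (SE 0.12, 2.76-fold, adjusted p = 0.00506), or -0.93 with normexp and loess. Gas1, a membrane protein that helps cells bind hedgehog ligands, had -1.91 and -1.80 at 5 mM and -0.44 and -0.38 at 1 mM, a difference of -1.44 (SE 0.11, adjusted p = 0.00506), and was the single one of 15 hedgehog pathway members past the contrast. Kif5c, a kinesin motor subunit, was lower by -1.36 (SE 0.11, adjusted p = 0.00506), and its other probe was not well above background. Kif5c and Gas1 were 1.48-fold and 1.33-fold below control at 1 mM, under the 1.5-fold that a call requires, and Gper1 was 1.05-fold below. At 1 mM Gper1, Gas1 and Kif5c had 4.20%, 22.2% and 29.2% of their log2 response at 5 mM, beside 31.6% for Dnajc6, the auxilin that strips clathrin from vesicles, which had ratios of -2.95 and -3.52 at 5 mM and -0.77 and -1.28 at 1 mM. Dnajc6 was graded, with a difference of -2.21 (SE 0.23, 4.63-fold, adjusted p = 0.00801), as were Ggt5, Angpt2 and Fam180a, by -1.68, -1.57 and -1.36, while another probe of Ggt5 was not called at 1 mM. Angpt2, a ligand of the TIE2 receptor, was lower by -0.69 with normexp and loess and did not pass (adjusted p = 0.0798). Spon2, a secreted matrix protein, was lower by -1.60 (SE 0.17, adjusted p = 0.00801), or by -1.07 with normexp and loess, and was not called at 1 mM.

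Bmp4, a growth factor of the TGF-beta family, had ratios of -1.18 and -1.13 at 5 mM and -0.37 and -0.30 at 1 mM and was lower by -0.82 (SE 0.10, adjusted p = 0.0123). It was the 1 lower member among the 30 of the TGF-beta, BMP and activin list, beside 2.4% lower over all genes. Protocadherins of the beta cluster, neuronal-type adhesion molecules, gave the 3 lower members among 33 adhesion genes, none of which was higher. Pcdhb15 had -1.17 and -1.35 at 5 mM and -0.24 and -0.42 at 1 mM, a difference of -0.94 (SE 0.10, adjusted p = 0.00801), and Pcdhb16 and Pcdhb20 were lower by -0.52 and -0.68. The median difference of the adhesion list was -0.14.

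Deacetylases and acetyltransferases set the acetylation of histones, on which MAA acts. Of 28 deacetylases and acetyltransferases Sirt1 and Kat2b were lower at 5 mM and none was higher, beside 2.4% lower and 1.82% higher over all genes, with a median difference of -0.10. Sirt1, an NAD-dependent deacetylase, had ratios of -1.12 and -1.05 at 5 mM and -0.40 and -0.43 at 1 mM, a difference of -0.67 (SE 0.09, adjusted p = 0.0127), while another of its probes, with a difference of -0.46, did not pass (adjusted p = 0.178). Kat2b, an acetyltransferase, was lower by -0.57 (SE 0.10, adjusted p = 0.0298), and its other probe had a difference of -0.56 with a wider error that did not pass (SE 0.26). Neither Sirt1 nor Kat2b passed after median centring (adjusted p = 0.198 and 0.244) or with any of the 4 arrays left out. H1f0, a linker histone variant, was raised at both concentrations, with 1.19 and 1.06 at 5 mM and 0.52 and 0.66 at 1 mM, and was the 1 of 19 histone genes past the contrast (0.54, SE 0.10, adjusted p = 0.0322), while its other 2 probes had differences of 0.61 and 0.68 with wider errors that did not pass (SE 0.16 and 0.18). H1f3, another linker histone, had 2.42 and 1.56 at 5 mM and 1.47 and 1.02 at 1 mM, and its difference of 0.75 did not pass (SE 0.28, adjusted p = 0.238).

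CREB and ATF factors bind cyclic AMP response elements. Of 13 members 2 were lower at 5 mM and none was higher, beside 2.4% and 1.82% of all genes. The median difference of the list was -0.15. Atf1 had a mean ratio of -0.98 at 5 mM and -0.40 at 1 mM, a difference of -0.58 (SE 0.10, adjusted p = 0.0282), and another of its probes gave -0.64 and was called at 5 mM (adjusted p = 0.0131). Atf4, the effector of the integrated stress response, was lower by -0.46 (SE 0.09, adjusted p = 0.0459), and Creb5 had ratios that differed between arrays, 0.91 and 1.47 at 5 mM and 0.26 and 0.73 at 1 mM, and did not pass (adjusted p = 0.312). Neither Atf1 nor Atf4 stayed past the contrast after median centring.

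Steroidogenesis genes showed 1 of 25 members higher and 1 lower, beside 1.82% and 2.4% of all genes. Hsd17b7, an enzyme of cholesterol synthesis and estradiol formation, was higher at 5 mM by 0.73 (SE 0.12, adjusted p = 0.0250), which is also the 1 of 26 cholesterol genes past the contrast, and Hsd17b11, a related dehydrogenase, was lower by -0.65 (SE 0.13, adjusted p = 0.0378). The other probes had differences of 0.96 for Hsd17b7 and -0.41 for Hsd17b11, in the same directions, with wider errors that did not pass (SE 0.45 and 0.33). Cyp17a1, the enzyme that commits steroids to androgens, had ratios of -0.30 and -0.11 at 5 mM and -0.33 and -0.19 at 1 mM, and a difference of 0.06 with a 95% interval of -0.40 to 0.51. It was called at neither concentration, and the interval leaves room for a difference in either direction. Shbg, the carrier of sex steroids in blood, and the RAS activator Rasgrp2 were not well above background in either channel and get no value.

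Lists on growth and stress held 1 to 3 members past the contrast or none. Among 25 cell cycle inhibitors and G1 cyclins, Btg2 was higher at 5 mM by 0.46 and Ccng2 lower by -0.69, and among 29 replication and mitosis genes the kinase Aurka was lower by -0.49. Bok was the lower member of 18 BCL2 family genes, Srxn1 of 28 glutathione, NRF2 and metallothionein genes and Xbp1 of 26 heat shock and stress response genes, by -0.51, -0.41 and -0.47. Of 39 homeobox and developmental factors Snai1 was higher by 0.73 and Hoxd3 and Hoxc6 lower by -0.94 (-0.61 with normexp and loess) and -0.71. Other probes did not pass but had the same direction, with differences of 0.52 and 0.55 for Btg2 and -0.34 and -0.31 for Srxn1, and that of Hoxd3 was not above background. The probes that stood for Gadd45b, Ccnb1 and Id2 did not pass, but another probe of each did. Their differences were 0.61, -0.36 and 0.77 (adjusted p = 0.0147, 0.0485 and 0.0110 by limma), and the lists do not count them. Vcl, which links actin to adhesion sites, was higher by 0.44 among 26 actin genes (another probe had 0.41 and did not pass), and Adamts4 and Serpinb9 were lower by -0.61 and -0.67 among 29 matrix proteases and inhibitors. None of 28 collagens and small proteoglycans and none of 30 potassium channel genes passed. Over all genes 1.82% were higher and 2.4% lower, and of the 28 lists 12 kept a member past the contrast after median centring.

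**Figure D3:**
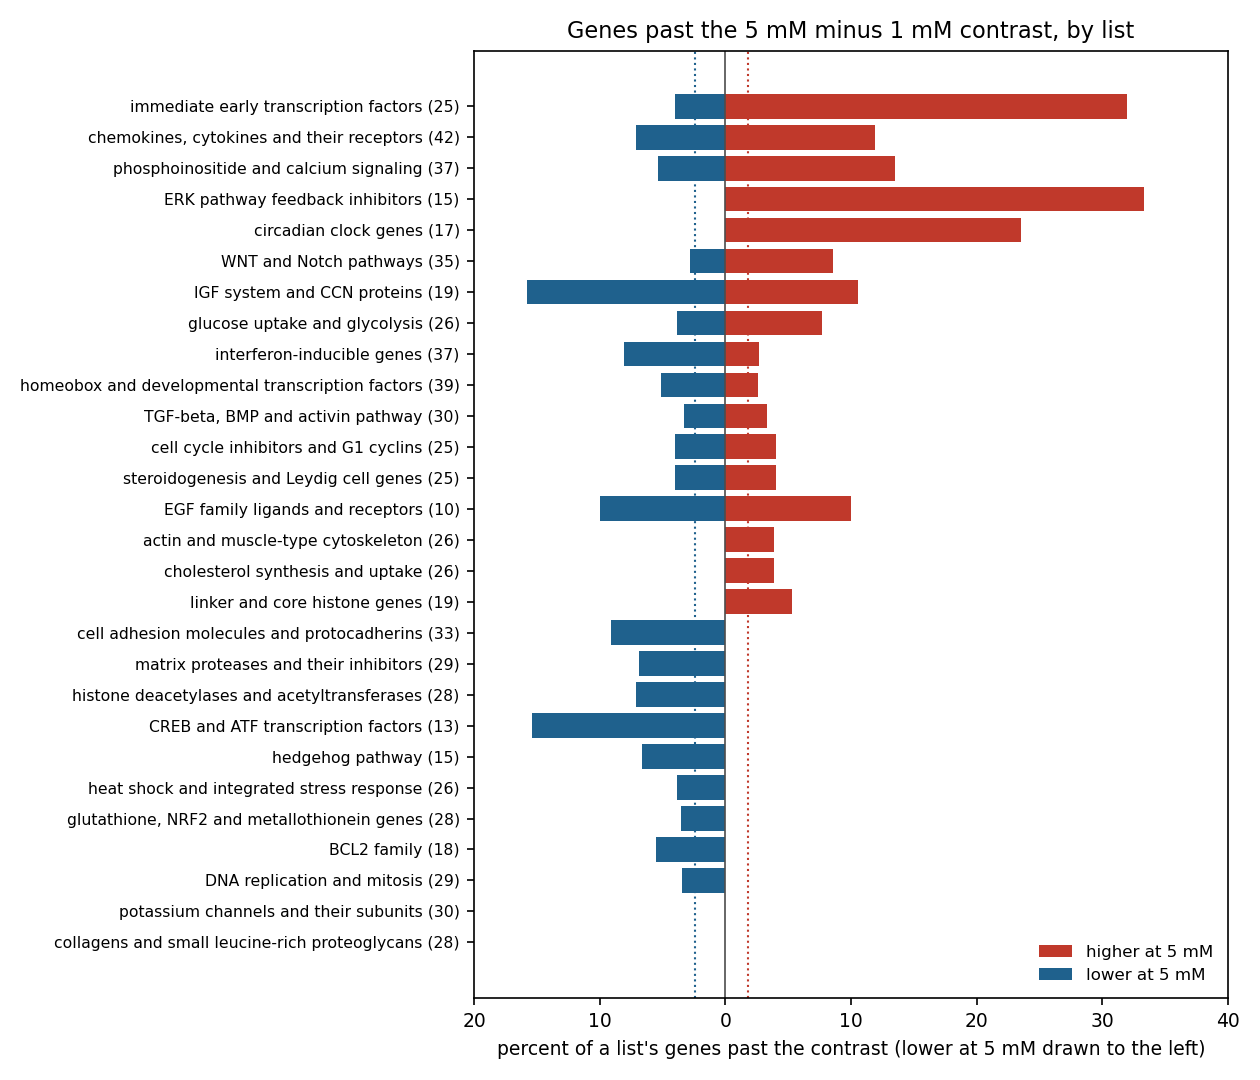
Percent of the genes of each list that were higher at 5 mM (red, to the right) or lower (blue, to the left), with the number of genes in parentheses. Dotted lines mark the 1.82% and 2.4% of all genes.

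Genes already full at 1 mM, by the rule below, were fewer than those with a larger or graded response. A probe counted as full when it was called in the same direction at both concentrations and the upper 95% limit of its further response at 5 mM was under 1.5-fold, or 0.58 on the log2 scale, since a difference that misses its threshold does not show that the concentrations act alike. Of 505 probes called in the same direction at both, 35 were full (0.085% of all probes), 198 graded and 272 neither. This order depended on the bound and on the arrays. With a bound of 2-fold 237 probes were full, and with the 3 h arrays alone 20 were full and 0 graded. Of the fits without a single array, full probes were fewer than graded ones only in that without replicate 1 at 5 mM. The full probes were 32 raised and 3 lowered, and with 1 probe per gene 20 genes were full (0.125%). Without replicate 1 at 5 mM 21 probes were full, 12 of them among the 35, and after background correction by normexp followed by loess 7 were full, 4 of them among the 35. Of the 425 with a larger response at 5 mM, 198 were among the 366 found with normexp and loess.

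Kcnab3, a beta subunit of voltage-gated potassium channels, was the gene with the narrowest interval. It had ratios of 1.26 and 1.18 at 5 mM and 1.18 and 1.13 at 1 mM, a difference of 0.06 with a 95% interval of -0.13 to 0.25. All 4 arrays lay together, at 2.23-fold above control at 1 mM, and no other gene of the potassium channel list was full. Sphk1, the kinase that makes sphingosine 1-phosphate, had 1.12 and 0.97 at 5 mM and 1.18 and 0.94 at 1 mM, a difference of -0.01 (95% interval -0.32 to 0.30), whose sign was positive with normexp and loess, with median centring and with the slide as a block. It is the single gene of the 12 named as full that remained full with normexp and loess. Another Sphk1 probe had 0.66 and 0.57 at 5 mM and 0.68 and 0.76 at 1 mM and was called at 1 mM but not at 5 mM, where it stayed under 2-fold.

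Plcd1, a phospholipase C that releases inositol trisphosphate, had ratios of 1.54 and 1.49 at 5 mM and 1.17 and 1.16 at 1 mM. Its further response of 0.36 (0.15 to 0.56, adjusted p = 0.0838) was within the bound but its interval lay above 0, so Plcd1 is full only in the sense of the 1.5-fold limit. Socs2, an inhibitor of growth hormone and cytokine receptor signaling, had 1.05 and 1.34 at 5 mM and 0.96 and 1.16 at 1 mM, a difference of 0.14 (-0.23 to 0.50). The arrays of the 2 concentrations overlapped for Socs2 and not for Plcd1.

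Several full genes had ratios at 1 mM at or above those at 5 mM. Chst1, a sulfotransferase of keratan sulfate, had 1.15 and 1.18 at 5 mM and 1.52 and 1.38 at 1 mM, a difference of -0.29 (-0.49 to -0.09, adjusted p = 0.136) that turned positive with normexp and loess. Eva1a, a membrane protein that regulates autophagy, had 0.99 and 1.44 at 5 mM and 1.60 and 1.32 at 1 mM, a difference of -0.24 (-0.68 to 0.19) that also turned positive with normexp and loess. Rnf144b, a ubiquitin ligase, and Gpr162, an orphan receptor, had differences of -0.00 (-0.30 to 0.29) and 0.04 (-0.33 to 0.41), and Thsd1 and Mpp3 of 0.12 (-0.29 to 0.52) and 0.16 (-0.17 to 0.49). Rnf144b was positive with normexp and loess and after median centring. Il7r, the receptor of interleukin-7, also met the rule, but its control channel was not well above background at either concentration, and it gets no fold.

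Among decreases a single named gene was full. Kdm8, a JmjC-domain protein, had ratios of -1.08 and -1.20 at 5 mM and -0.92 and -0.83 at 1 mM, a difference of -0.27 with a 95% interval of -0.57 to 0.03. At 1 mM it had 76.6% of its 5 mM response, beside a median of 38.1% over all probes lowered at 5 mM. This gap is not a separate result, since Kdm8 met the rule for full genes and those probes were chosen by their 5 mM ratio.

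**Figure D4:**
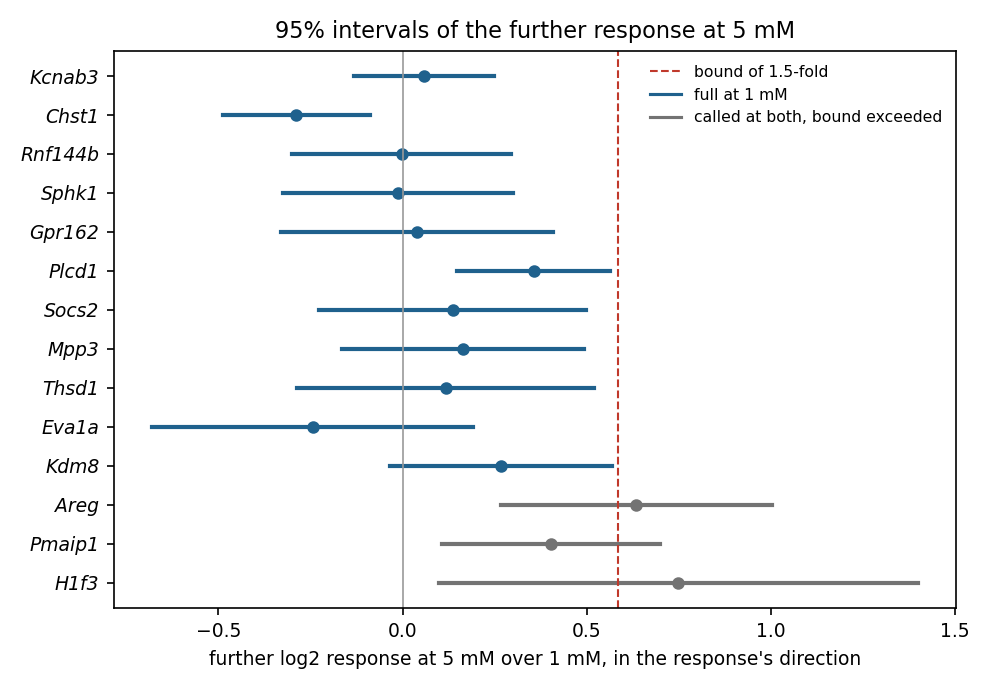
Further log2 response at 5 mM over 1 mM (horizontal axis) with its 95% interval, for genes full at 1 mM (blue) and for genes called at both concentrations whose interval passes the bound (grey). The dashed line marks 1.5-fold, which the interval of Areg crosses and that of Kcnab3 does not reach.

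Over all 1547 probes called at 5 mM, the median share of the 5 mM log2 response that was present at 1 mM was 41.2%, with quartiles of 28.2% and 53.8%. It was 44.6% for raised and 38.1% for lowered probes, a gap that came mostly from replicate 1, with 47.5% and 36.8%, beside 42.0% and 40.7% in replicate 2. The probes were chosen by their 5 mM ratio, which tends to make this share small. Equal responses could therefore also give a share under 100%, and how far the choice lowered it was not tested. Whether the ratios at both concentrations share control RNA is unknown, and its part in the share was not tested. The share was 3.86% for Jag1, 5.25% for Fos and 6.17% for Cxcl1, 45.7% for Nr4a1 and 50.2% for Cx3cl1, and 95.2% for Kcnab3 and 125% for Chst1.

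For 161 of the 1399 probes past the contrast, 74 higher and 87 lower at 5 mM, the ratios had opposite signs at the concentrations on all 4 arrays. Among the named genes these were Hsd17b7, Camk2b, Bok, Ifit2, Adamts4 and Thpo. Thpo, which encodes thrombopoietin, was the single measured gene of those larger at 1 mM: its ratio was -0.08 on both 5 mM arrays, beside 0.67 and 0.56 at 1 mM, and its difference was -0.69 (SE 0.10, adjusted p = 0.0177). With normexp and loess the difference was -0.27, and neither there nor after median centring did Thpo pass (adjusted p = 0.194 and 0.186). Its 5 mM ratios did not differ from control by more than the medians of those arrays, -0.08 and -0.13. Without replicate 1 or replicate 2 at 5 mM the 14 probes larger at 1 mM became 6 and 2. Neither other probe of Thpo passed, with differences of -0.20 and, below background, -0.92. Adamts4, a protease of aggrecan, had -0.29 and -0.30 at 5 mM and 0.29 and 0.33 at 1 mM, a difference of -0.61 (SE 0.08, adjusted p = 0.0144).

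The control channels, which hold untreated cells on both sides, were compared between the 5 mM and the 1 mM arrays by a limma fit of single channels. Unlike the ratios, these signals were normalized between arrays and their fit held a term for the dye. The counts of the channels therefore do not come from the test that gave the 1399 probes. Between the controls of the 5 mM and the 1 mM arrays 3 probes passed an adjusted p under 0.05 in limma, 1 higher and 2 lower, and between the MAA channels 7436 did. The first count was 45 to 224 when a single array was left out: 224 without replicate 1 at 1 mM, 76 without replicate 2 at 1 mM, 74 without replicate 1 at 5 mM and 45 without replicate 2 at 5 mM. Of the 1399 probes past the contrast, 21 had a larger difference in the control than in the MAA channel. Over the 77 genes of the naming rule past the contrast the control channel differed by -0.05 to 0.53 and the MAA channel by -2.80 to 1.86. None had a larger computed difference in the control. The -2.80 is that of Ptgfr, whose MAA channel was not well above background at 5 mM, so this end of the range is not exact. The largest control differences were those of Il12a at 0.53, the RNA-binding protein Arid5a at 0.52 and the kinase Taok3 at 0.36, beside ratio differences of -2.05, 1.35 and 1.36. The -2.05 of Il12a is not exact, since its MAA channel was not well above background at 5 mM. Its minimum fold of 1.44 between the concentrations does not show which of its channels differed more. Arid5a differed by 1.86 in the MAA channel, and another of its probes, with a ratio difference of 1.08, did not pass.

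**Figure D5:**
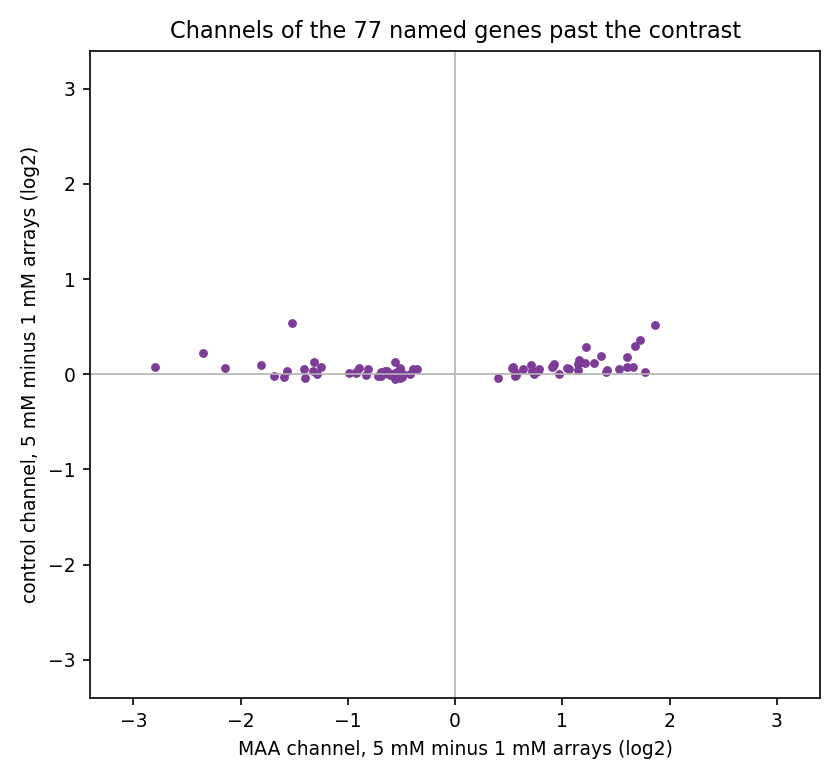
Difference between the 5 mM and the 1 mM arrays in the MAA channel (horizontal axis) and in the control channel (vertical axis) for the 77 genes of the naming rule past the contrast. The points spread along the horizontal axis and stay between -0.05 and 0.53 on the vertical axis. The MAA channel of Il12a and Ptgfr was not well above background at 5 mM, so their horizontal positions are not exact.

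Promoter sequences are shown for genes that moved together at 5 mM and for genes full at 1 mM, to show which known elements stand in them. Windows of 300 bases, from 250 before to 50 after the start of a gene, were taken from RefSeq (build GRCm38.p6) for 27025 genes, and 104 of 144 named genes had at least 1. Both strands were searched for the cyclic AMP response element (CRE) TGACGTCA, the AP-1 element TGAGTCA or TGACTCA, the E-box CACGTG, the GC box GGGCGG and the CArG box of serum response factor. Capitals mark the CRE, AP-1, E-box or CArG match, GC boxes are left in lower case, and every sequence is written 5′ to 3′ on the strand of its gene. Errfi1 at chr4:150854820-150855119 (plus strand) holds a CRE, Per1 at chr11:69098699-69098998 (plus strand) an E-box, Egr2 at chr10:67537316-67537615 (plus strand) a CArG box, and Cxcl10 at chr5:92348840-92349139 (minus strand) an AP-1 element. Of the genes full at 1 mM, Sphk1 at chr11:116531587-116531886 (plus strand) holds an AP-1 element and Eva1a at chr6:82041378-82041677 (plus strand) an E-box. These windows were picked because they hold the element: Errfi1 and Per1 each have another window without it, and Egr2 and Sphk1 each have 5 windows, not all with it.
Errfi1: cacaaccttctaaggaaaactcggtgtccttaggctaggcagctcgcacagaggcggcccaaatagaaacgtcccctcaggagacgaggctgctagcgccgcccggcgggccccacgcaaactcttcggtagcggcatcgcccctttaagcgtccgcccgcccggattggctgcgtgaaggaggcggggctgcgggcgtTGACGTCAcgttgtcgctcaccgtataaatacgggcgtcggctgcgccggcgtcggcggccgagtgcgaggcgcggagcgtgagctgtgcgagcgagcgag
Per1: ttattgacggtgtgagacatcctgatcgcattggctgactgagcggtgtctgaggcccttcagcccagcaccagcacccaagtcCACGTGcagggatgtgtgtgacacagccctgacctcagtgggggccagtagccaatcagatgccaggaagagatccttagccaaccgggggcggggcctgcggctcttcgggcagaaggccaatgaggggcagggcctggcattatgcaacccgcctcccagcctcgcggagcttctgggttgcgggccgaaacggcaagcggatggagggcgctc
Egr2: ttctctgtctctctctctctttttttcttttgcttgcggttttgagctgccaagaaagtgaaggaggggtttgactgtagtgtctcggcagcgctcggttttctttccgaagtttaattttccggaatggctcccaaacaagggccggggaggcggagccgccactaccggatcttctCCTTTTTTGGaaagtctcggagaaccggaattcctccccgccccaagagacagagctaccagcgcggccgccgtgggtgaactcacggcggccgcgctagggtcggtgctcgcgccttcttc
Cxcl10: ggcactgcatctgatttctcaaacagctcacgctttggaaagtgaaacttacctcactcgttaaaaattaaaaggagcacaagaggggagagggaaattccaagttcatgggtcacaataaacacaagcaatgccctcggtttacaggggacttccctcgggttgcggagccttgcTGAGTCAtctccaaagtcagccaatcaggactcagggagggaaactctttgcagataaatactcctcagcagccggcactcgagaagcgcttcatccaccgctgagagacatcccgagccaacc
Sphk1: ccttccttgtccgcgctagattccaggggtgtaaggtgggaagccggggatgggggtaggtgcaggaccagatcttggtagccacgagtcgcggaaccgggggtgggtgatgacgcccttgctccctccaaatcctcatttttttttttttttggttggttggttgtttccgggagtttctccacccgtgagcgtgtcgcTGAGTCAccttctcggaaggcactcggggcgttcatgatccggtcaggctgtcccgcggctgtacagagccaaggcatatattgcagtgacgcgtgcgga
Eva1a: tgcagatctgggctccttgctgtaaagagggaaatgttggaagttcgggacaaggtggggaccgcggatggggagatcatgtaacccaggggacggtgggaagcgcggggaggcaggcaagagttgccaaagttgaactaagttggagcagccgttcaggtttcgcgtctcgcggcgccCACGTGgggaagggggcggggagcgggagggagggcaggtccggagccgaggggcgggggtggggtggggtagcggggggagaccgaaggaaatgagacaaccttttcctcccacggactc

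The share of genes with each element is given for all promoters, for measured genes and for the groups. A CRE was found in 2.03% of all genes with a promoter and in 3.38% of the 8704 with a probe above background in at least 1 channel on all 4 arrays, in 2 of 54 matched genes with a larger increase at 5 mM, in 4 of 96 with a larger decrease and in none of 31 with a graded increase or of 13 full at 1 mM. An AP-1 element was in 5.95% of all, 4.93% of measured genes, 4 of the 54, 7 of the 96, 2 of the 31 and 1 of the 13. An E-box was in 8.09%, 11.6%, 6 of the 54 (11.1%), 14 of the 96 (14.6%), 4 of the 31 (12.9%) and 3 of the 13 (23.1%). A CArG box was in 1.81%, 1.57%, 2 of the 54, 4 of the 96, 1 of the 31 and none of the 13. GC boxes were common in measured genes: 38.2% of all and 67.2% of measured genes had a match, beside 42 of the 54 (77.8%), 26 of 31 with a graded increase (83.9%), 7 of 13 with an increase full at 1 mM (53.8%) and 59 of 96 with a larger decrease at 5 mM (61.5%). These shares were not tested, and a match is a description of the letters in the window.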

How the data were processed

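Agilent Feature Extraction 9.5.3.1 gave the deposited processed signals, in intensity, which the authors had background-subtracted and dye-normalized within each array. The deposited series table holds log10 ratios of MAA over control, which were used as an alternative. Log2 ratios of MAA to control were computed here from the processed signals, turned by dye and averaged per probe over 45018 spots less 1639 control spots and the outlier spots that the software marked, which left 41174 probes. Symbols were given to 22147 probes, 22072 of them through RefSeq accessions and 75 through the deposited gene name or a synonym. Promoters are those of RefSeq GRCm38.p6. A limma fit of all 12 arrays with 6 conditions (6 residual and 1.52 prior degrees of freedom) gave calls and the contrast with Benjamini-Hochberg adjustment (R 4.3.3, limma 3.58.1, Python 3.11.15, matplotlib 3.10.9). The functions that call the classes were tested on simulated data.

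The probe with the highest mean signal stood for a gene. Named were the 10 genes with the largest difference in each direction, the 10 full genes with the largest ratio in each direction, the 5 graded genes and the 5 larger at 1 mM with the largest difference in each direction, up to 4 genes of each of 28 lists with the smallest p and any full member, and genes the study names. Cd14 and 13 other list members were named after their values were seen. Members and lists were chosen with earlier results of these data known. Channels were compared after quantile normalization of the average log2 signal between arrays, with the dye as a term of the fit. Where MAA was not well above background at 5 mM its value was raised to the lowest signal well above background on that array, which makes the printed fold a minimum. The alternatives were normexp with an offset of 50 and loess, the deposited table, median centring, leaving out dim probes, keeping outlier spots, a replicate or slide block, the 3 h arrays alone, other thresholds, the MAA channels alone and leaving out each array.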

Additional observations from a re-analysis of the deposited data

Results flagged for a closer look

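For 6 named genes the ratios at 5 mM and at 1 mM had opposite signs on all 4 arrays, and the limma contrast between the concentrations passed an adjusted p under 0.05. None of the 6 passed after median centring or with any of the 4 arrays left out. Hsd17b7 was above control at 5 mM and below it at 1 mM, with a difference of 0.73. The other 5 had ratios below 0 at 5 mM and above 0 at 1 mM: Camk2b, a subunit of a calcium-dependent kinase, by -0.43, the BCL2 family member Bok by -0.51, the interferon-inducible Ifit2 by -0.59, the protease Adamts4 by -0.61 and thrombopoietin (Thpo) by -0.69. Other probes did not pass: their differences were 0.96 for Hsd17b7, -0.45 for Ifit2, and -0.20 and -0.92 for Thpo. The 5 mM ratios of Thpo, -0.08 on both arrays, are no further from 0 than the medians of those arrays, so its opposite signs are lost after median centring. Camk2b and Thpo did not pass with normexp and loess, where their differences were -0.23 and -0.27.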

How the results depend on the processing

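No named gene past the contrast changed direction, and the cause of the changes below was not tested. Of the 1399 probes past the contrast 10 changed sign with normexp and loess and 4 with the MAA channels alone, and 10 of 28 list medians changed sign under at least 1 of 4 scalings. Differences near 0 that had not passed also changed sign: with normexp and loess Eva1a became 0.16, Chst1 0.08, Sphk1 0.17, Rnf144b 0.24 and Cyp17a1 -0.04, with median centring Sphk1 became 0.09 and Rnf144b 0.10, and with the slide block Sphk1 became 0.03 and Cyp17a1 -0.06. The 1399 probes past the contrast became 2465 with normexp and loess, 2837 with the deposited table, 220 with median centring, 3207 without dim probes, 4003 with the replicate as a block, 0 with the 3 h arrays alone in limma (3650 with an unadjusted p under 0.05), 318 by unadjusted p and fold, 7436 with the MAA channels alone, and 82 to 465 without single arrays. The lone array left at a concentration is then assumed to vary like the other groups. Of the 1399, 44.4% were higher at 5 mM, and 54.4% were with normexp and loess and 63.6% with median centring. The 425 with a larger response at 5 mM became 132 with median centring, 0 with the 3 h arrays alone, 196 by unadjusted p and fold, 747 with the MAA channels and 50 to 268 without single arrays. The 198 graded probes became 80 with normexp and loess, 72 with median centring, 302 with the replicate block, 0 with the 3 h arrays alone, 76 by unadjusted p and fold, 378 with the MAA channels and 28 to 89 without single arrays. The 35 full probes became 7 with normexp and loess, 20 with the 3 h arrays alone, 237 with a bound of 2-fold and 21 to 36 without single arrays. The 14 larger at 1 mM became 0 with normexp and loess, 24 with the deposited table, 3 with median centring, 34 with the replicate block, 24 with the slide block, 0 with the 3 h arrays alone, 30 with the MAA channels and 2 to 10 without single arrays. The share of 41.2% was 34.4% with normexp and loess, 41.5% with the deposited table, 40.5% with median centring, 42.2% without dim probes, 41.4% with the replicate block, 40.8% with the slide block, 41.6% with the 3 h arrays alone, 40.9% with calls by adjusted p and 34.6% to 42.9% without single arrays. The 3 control-channel probes became 0 without dim probes (597 unadjusted), 0 with the 3 h arrays alone (1716 unadjusted) and 45 to 224 without single arrays. Of the 77 named genes, 73 stayed past the contrast with normexp and loess, 70 with the slide block and 35 with median centring, and of the 14 genes named outside the rule 13, 11 and 4 did. Some of the 144 genes named by the rule that did not pass in the main fit did so elsewhere. There were 18 such genes with normexp and loess, 21 with the deposited table, 30 without dim probes and 30 with the replicate block. The slide block gave 9, the MAA channels alone 43 and median centring 0. Replicate numbers, which equal dye orientation, were not a term of the main fit. The labels give the dye but no pairing of cultures. An effect of the dye cancels in the mean of a dye-swapped pair but stays in the spread between replicates. Correlations of deviations between same-numbered arrays ran from 0.075 to 0.515 over 15 pairs of conditions. The highest was that of 5 mM and 1 mM at 3 h, and the replicate block gave 4003 probes.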
